A study of Mus musculus with 9 samples.

Results

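The pre-B cell receptor is the immunoglobulin receptor that B cell precursors carry before they have made a light chain, and its chains and coreceptor were followed here through 7 genes. The members were all probe sets, the groups of short probes that read 1 transcript on the array, annotated to 1 symbol among Igll1, Vpreb1, Vpreb2, Vpreb3, Cd79a, Cd79b and Cd81. There were 7 such probe sets of 6 genes, of 45037 probe sets without controls and 18193 genes with a probe set of their own. Vpreb2 had no probe set annotated to it alone, and the 1 probe set annotated to both Vpreb1 and Vpreb2 is given beside the members. Igll1 was read by 2 probe sets and each of the other 5 genes by 1.

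All cells were cultured mouse pre-B cells with null genotypes for both IRF4 and IRF8, a pair of interferon regulatory transcription factors, and total RNA was hybridised to 9 Affymetrix arrays. On 3 arrays the cells had been kept in low IL-7, the cytokine that sustains growth of B cell precursors, with 0.25 ng in the labels. In 3 the cells had high IL-7, 5 ng in the labels, and IRF4 had been reintroduced. In the remaining 3 they had the same high IL-7 with no IRF4. The labels disagree on whether these amounts are per millilitre or per microlitre, and they do not say how IRF4 was put back. No group is labelled as handled in the same way without receiving IRF4, so IRF4 and the means of putting it back cannot be told apart. No label says that the 3 arrays of a group were separate cultures or animals, so p-values measure only the spread between these arrays, which may be technical, and their small number limits the precision. The sources used here name no batch.

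In the pre-B cell receptor, the immunoglobulin mu heavy chain pairs with a surrogate light chain made of lambda 5, encoded by Igll1, and VpreB, encoded by Vpreb1 and its near copy Vpreb2. Signals pass through the heterodimer of Ig-alpha and Ig-beta, encoded by Cd79a and Cd79b, to the kinase Syk and the adaptor Blnk. Expression of the receptor marks the large dividing pre-B cell, and surrogate light chain genes are switched off as the cell goes on to rearrange its light-chain genes. Vpreb3 encodes a VpreB-like protein that binds newly made heavy chains inside the cell. Cd81 encodes a tetraspanin, a membrane protein of the B cell coreceptor complex.

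The surrogate light chain genes are shown first by sequence, because Vpreb1 and Vpreb2 share a probe set and because Igll1 and Vpreb1 are neighbours on chromosome 16. Promoter sequences were compared, not transcripts or probes, so they do not show how well the array separates Vpreb1 from Vpreb2. The RefSeq promoter table, on build GRCm38.p6, held 6 of the 7 members and not Cd79b. Over the 156 bases in which the tabled sequences of Vpreb1 and Vpreb2 could be aligned, 153 were identical (98.1%). The 106 bases of that stretch that lie before both tabled starts follow, 5′ to 3′, with the 2 differing bases in capitals.
Vpreb1 stretch (chr16:16869256-16869361, minus strand): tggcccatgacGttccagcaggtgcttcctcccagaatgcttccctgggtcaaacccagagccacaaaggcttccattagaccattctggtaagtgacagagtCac
Vpreb2 stretch (chr16:17980315-17980420, plus strand): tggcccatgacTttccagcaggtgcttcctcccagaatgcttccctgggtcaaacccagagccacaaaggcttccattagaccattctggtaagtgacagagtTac

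Values of Vpreb1 followed those of only the brighter of the 2 Igll1 probe sets, and the group means of Vpreb3 had another order. The 250 bases before the tabled start are shown for these 3 genes. Capitals mark matches to 2 of the motifs described after them, the E box CAGGTG and a form of the EBF core widened to 3 free bases. Other E boxes are left in lower case, and Vpreb3 has no match to either.
Igll1 (chr16:16863986-16864235, minus strand): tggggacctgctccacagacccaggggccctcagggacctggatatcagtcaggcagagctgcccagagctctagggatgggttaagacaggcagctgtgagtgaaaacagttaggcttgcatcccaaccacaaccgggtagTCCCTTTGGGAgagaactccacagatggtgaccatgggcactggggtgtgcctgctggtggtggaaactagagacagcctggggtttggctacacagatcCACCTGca
Vpreb1 (chr16:16869256-16869505, minus strand): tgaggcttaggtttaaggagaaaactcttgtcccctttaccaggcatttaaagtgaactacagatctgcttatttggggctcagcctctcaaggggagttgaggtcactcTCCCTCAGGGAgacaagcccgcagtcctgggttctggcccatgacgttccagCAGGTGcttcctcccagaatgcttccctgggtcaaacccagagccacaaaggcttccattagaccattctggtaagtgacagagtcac
Vpreb3 (chr10:75948050-75948299, plus strand): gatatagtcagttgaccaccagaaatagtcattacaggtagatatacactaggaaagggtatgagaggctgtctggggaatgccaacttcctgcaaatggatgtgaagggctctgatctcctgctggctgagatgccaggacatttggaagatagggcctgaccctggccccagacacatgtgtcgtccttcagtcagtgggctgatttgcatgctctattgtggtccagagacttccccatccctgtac

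Motifs of factors known to act on B lineage promoters were searched on both strands of these 250 bases. The E box CAGGTG, a form bound by the E proteins, was found in Igll1 at 8 bases before the start, read as CACCTG, and in Vpreb1 at 88 bases. It was also in Cd79a and in Vpreb2, there within the stretch shared with Vpreb1, and 17.2% of 32851 promoters of the same length hold it. Vpreb3 and Cd81 had no match to these letters. The wider E box CANNTG, which includes CAGGTG, was present in all 6 members and in 66.2% of all promoters. The core TGGGAA of the Ikaros motif, in 21.6% of promoters, matched in Vpreb2 and Cd81. The palindromic core of the EBF motif, TCCC and GGGA with 2 free bases between, stood in 0.779% of promoters and matched in no member. A form with 3 free bases between TCCC and GGGA was added after the sequences had been read, so its matches were known beforehand and test nothing. It matched in Igll1 at 108 bases and in Vpreb1 at 140 bases before the start. It stood in 0.673% of all promoters and in no other member. The tabled Vpreb2 sequence begins downstream of where a counterpart of the Vpreb1 match would lie, so that part of Vpreb2 was not searched. These matches describe letters, and no binding was measured. A promoter without a match to such strict letters may still hold a site that differs from them.

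The labels were checked first. Irf4 was read by a dim and a bright probe set. The dim one lay at 1088 to 2543 intensity units in the 3 arrays given IRF4 against 202 to 381 in high IL-7 alone, with 257 to 316 in low IL-7, and it rose by 2.45 on the log2 scale with IRF4 against high IL-7 (limma, adjusted p = 0.000861). The bright one lay at 3702 to 4256 with IRF4 and 4719 to 5791 in high IL-7, and at 7161 to 7926 in low IL-7. These probe sets may read parts of the gene that the null allele still transcribes, so they check nothing about the knockout. Markers of pre-B and pro-B cells were bright, with 10 of 11 measured and a summed intensity of 88246 to 91722 in low IL-7, 59429 to 63127 with IRF4 and 57051 to 64725 in high IL-7. That list includes 4 of the members. No marker of any list was at 0 on any array. The sums over 8 T cell markers were 2008 to 2232, 1940 to 2039 and 1998 to 2287 in the same order, and those over 8 myeloid markers were 2762 to 2915, 3237 to 3740 and 2031 to 2467. The sums over 5 plasma cell markers, Irf4 among them, were 11761 to 12477, 8840 to 10245 and 12046 to 12448, and those over 3 erythroid and megakaryocyte markers were 695 to 769, 670 to 793 and 668 to 824. Between low and high IL-7, 7 of the pre-B, 1 of the T cell, 2 of the myeloid and 2 of the plasma cell markers were called higher, and 1 each of the myeloid, plasma and erythroid markers lower. With IRF4 against high IL-7, 2 of the pre-B, 1 of the T cell and 1 of the myeloid markers were called higher, and 1 each of the myeloid and plasma cell markers lower.

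Arrays stood apart in 2 ways that touch the members. The mean intensity of the 3 control probe sets for 18S ribosomal RNA was 69.8 in IRF4 replicate 3 and 76.8 in high IL-7 replicate 1, against 192 to 346 in the other 7 arrays. Markers of stroma and fibroblasts, 13 of 14 measured, summed to 3731 to 8000 in low IL-7, to 4169 to 22345 with IRF4 and to 7229 to 32142 in high IL-7. Of the 13, Pdgfra and Col3a1 were called, both lower in low IL-7 than in high IL-7 (list median -1.68). By limma at an unadjusted p under 0.05, 9 were lower there. With IRF4 against high IL-7 none was called (median -1.04). The part of the 18S signal or of these markers in the results was not tested. The table holds no detection p-values, and signal over background is therefore unknown. Levels are compared only within a probe set. All RNA is from bulk cultures, in which fewer cells of a type and less RNA per cell cannot be told apart.

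**Figure D1:**
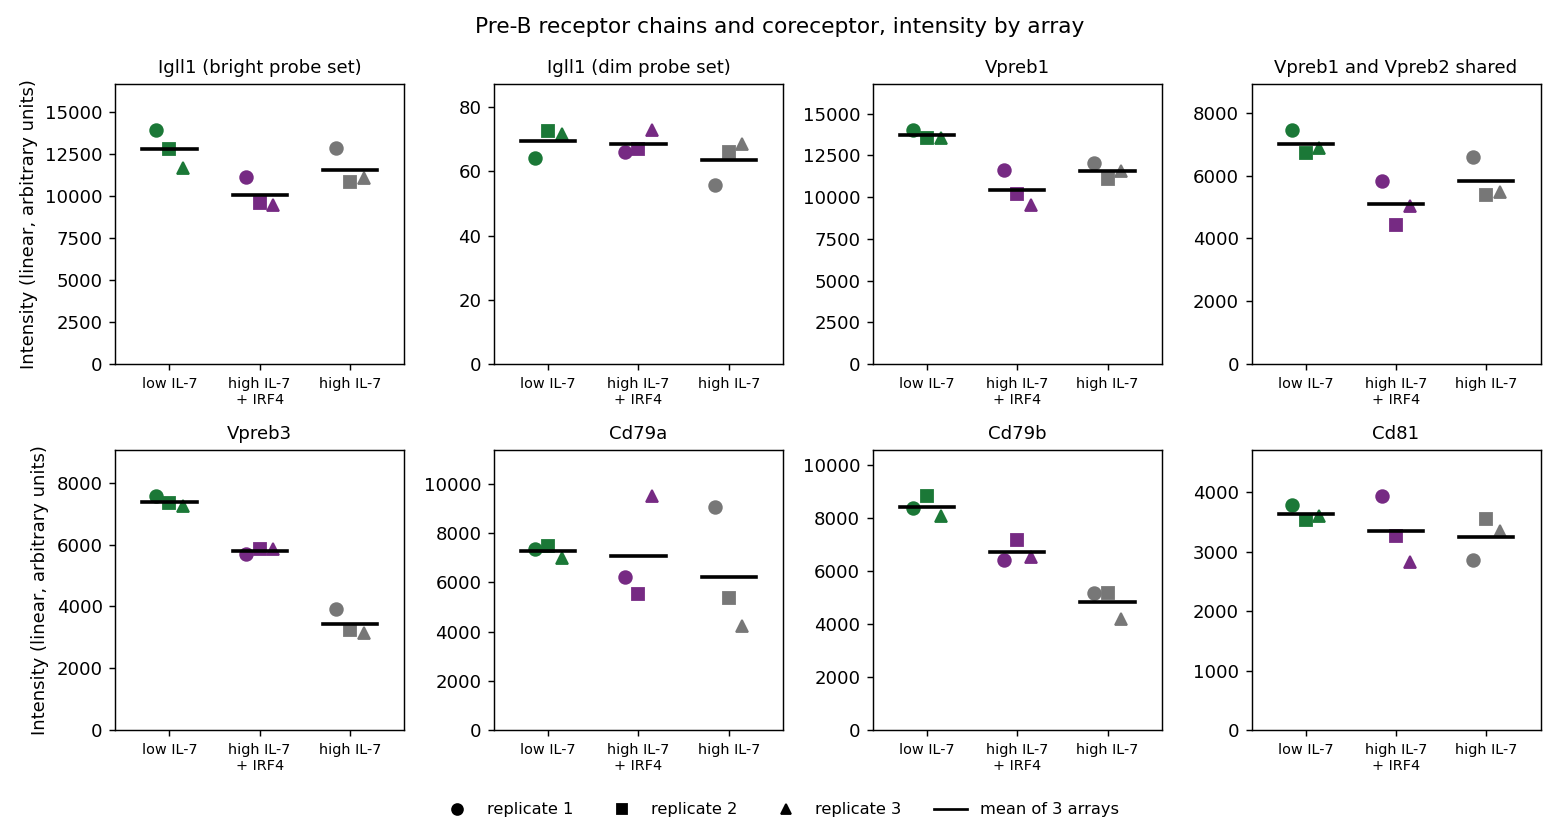
Intensity of each member probe set, and of the probe set shared by Vpreb1 and Vpreb2, in each of the 9 arrays, with 1 panel a probe set and groups in the order low IL-7, high IL-7 with IRF4 and high IL-7. Points are arrays and bars are group means. Vpreb3 averaged 7385, 5798 and 3428 in that order and Cd79b 8411, 6691 and 4844. The bright Igll1 probe set and Vpreb1 had their lowest means with IRF4, and the dim Igll1 probe set had its lowest in high IL-7.

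Igll1, the lambda 5 chain, was read mainly by its bright probe set. Its intensity was 13933, 12829 and 11690 in low IL-7, 11148, 9635 and 9463 in the IRF4 cells, and 12895, 10836 and 11076 in high IL-7. The low IL-7 arrays overlapped those in high IL-7, and so did the IRF4 arrays, but all 3 IRF4 arrays lay below all 3 low IL-7 arrays. Its suffix (x) marks a probe set that may also bind other transcripts. The second Igll1 probe set was dim, at 64.2 to 72.5 in low IL-7, 66.1 to 72.8 with IRF4 and 55.9 to 68.5 in high IL-7, below the 40th percentile of probe set means (108). The 2 probe sets did not move together over the 9 arrays (Pearson r = -0.41), and the dim one was called in no comparison.

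Vpreb1 had an intensity of 13993, 13546 and 13560 in low IL-7, 11647, 10191 and 9508 in the IRF4 cells, and 12052, 11073 and 11536 in high IL-7. The low IL-7 arrays were above all others, while the IRF4 and high IL-7 arrays overlapped. The probe set shared by Vpreb1 and Vpreb2 gave 7437, 6713 and 6886 in low IL-7, 5834, 4430 and 5017 in the IRF4 cells, and 6589, 5396 and 5462 in high IL-7. It showed the same order of group means as Vpreb1, and it cannot tell the 2 genes apart.

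Vpreb3 had 7562, 7340 and 7254 in low IL-7, 5685, 5853 and 5855 in the IRF4 cells, and 3914, 3238 and 3133 in high IL-7. No array of any group overlapped another group, and replicates within the low IL-7 and IRF4 groups lay close together (SD of 159 and 97 intensity units, n = 3 each). Cd79b, the Ig-beta chain, had 8376, 8804 and 8055 in low IL-7, 6426, 7142 and 6505 in the IRF4 cells, and 5176, 5158 and 4199 in high IL-7. Its 3 groups were likewise separate and in the same order.

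Cd79a, the Ig-alpha chain, had 7346, 7464 and 6980 in low IL-7, 6229, 5534 and 9482 in the IRF4 cells, and 9036, 5375 and 4228 in high IL-7. The low IL-7 arrays were tight, with a coefficient of variation of 3.48%, against 29.8% with IRF4 and 40.4% in high IL-7, and the 3 groups overlapped. Cd81 had 3786, 3542 and 3600 in low IL-7, 3934, 3259 and 2837 in the IRF4 cells, and 2864, 3547 and 3354 in high IL-7, and its groups overlapped too. The arrays with the highest Cd79a of all 9, at 9482 and 9036, were the same 2 that had the lowest Cd81, at 2837 and 2864, and the lowest 18S signal. Whether RNA quality had a part in this was not tested.

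**Figure D2:**
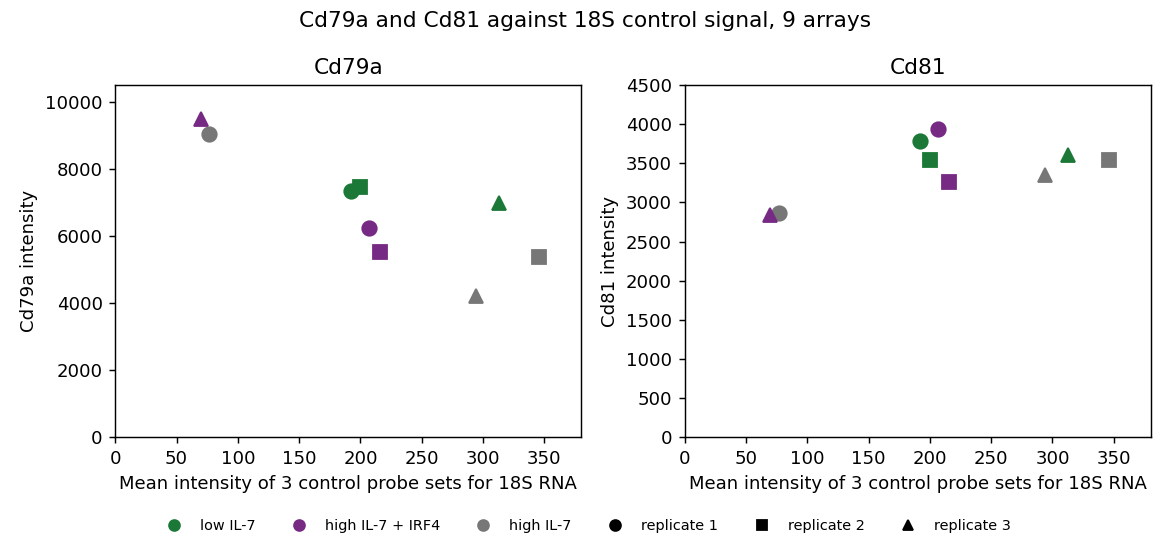
Intensity of Cd79a and of Cd81 in each of the 9 arrays against the mean intensity of the 3 probe sets for 18S ribosomal RNA, on linear axes, with 1 point an array, coloured by group and shaped by replicate number. The 2 arrays at 69.8 and 76.8 have the highest Cd79a (9482 and 9036) and the lowest Cd81 (2837 and 2864).

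Low IL-7 was set against high IL-7 to ask which receptor genes respond when the cytokine falls. Vpreb3 and Cd79b rose, by 2.16-fold and 1.74-fold, and Vpreb1 rose by 1.19-fold. Igll1, Cd79a and Cd81 did not pass the test. In all, 3 of the 7 member probe sets were called, each of them higher, in a comparison in which 23.5% of all probe sets were called and 12.1% were called higher. Calls rest on limma's moderated test, with p-values adjusted by the Benjamini-Hochberg method over the 45037 probe sets and a threshold of 0.05, and differences are on the scale of log2(intensity + 16), with n = 3 arrays per group.

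Vpreb3 differed by 1.11 (SE 0.078, adjusted p = 2.44e-06) and Cd79b by 0.80 (SE 0.082, adjusted p = 3.22e-05). Both differences were seen in every array, as were those of Vpreb1 and of the probe set shared with Vpreb2, where 38.3% of all probe sets had groups that did not overlap. Vpreb1 differed by 0.25 (SE 0.065, adjusted p = 0.0173). Its call was lost when arrays were scaled to 1 median (adjusted p = 0.0896), without a variance trend (0.0695), and without low IL-7 replicate 1 (0.0537), high IL-7 replicate 2 (0.0612) or high IL-7 replicate 3 (0.0523). The shared probe set differed by 0.27 (SE 0.10, adjusted p = 0.0797).

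Deviations of same-numbered arrays of these 2 groups correlated at r = 0.19 to 0.535, but differently numbered ones reached 0.359, so pairing is uncertain. The replicate number was also fitted as a block over all 9 arrays. With that block, the bright Igll1 probe set passed the test at the same difference of 0.14 (adjusted p = 0.0366), and so did the shared probe set (adjusted p = 0.01). A block with these 2 groups only gave adjusted p = 0.0417 and 0.00504. Without a block, Igll1 had an adjusted p of 0.276 and a 95% confidence interval of -0.04 to 0.33. Cd81 differed by 0.17 (interval -0.08 to 0.42, adjusted p = 0.356).

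Cd79a differed by 0.30 (SE 0.24, interval -0.24 to 0.83, adjusted p = 0.446). Without both arrays of low 18S signal, an alternative chosen after seeing the data, Cd79a differed by 0.61 (adjusted p = 0.00156) and no longer overlapped between the groups. Leaving out high IL-7 replicate 1 alone also gave 0.61 (adjusted p = 0.0388), and weighting arrays by their quality gave 0.54 (adjusted p = 0.0431). Leaving out high IL-7 replicate 3 instead gave 0.059 (adjusted p = 0.904), so the difference ran from 0.059 to 0.61 over single arrays left out. Vpreb3 (1.21, adjusted p = 2.08e-06), Cd79b (0.85, adjusted p = 0.00012) and Vpreb1 (0.28, adjusted p = 0.00584) stayed called without the 2 arrays. With them left out, 4 of 7 member probe sets were called, and 10465 of all 45037.

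IRF4 was set against high IL-7 alone to ask which receptor genes respond to IRF4 while the cytokine is high. Vpreb3 and Cd79b rose again, by 1.70-fold and 1.38-fold, and no other member was called. These 2 of 7 probe sets compare with 1.66% of all probe sets called, 0.953% called higher and 0.711% called lower. That background of 749 probe sets was not stable, with 366 called without IRF4 replicate 2, 398 without IRF4 replicate 3, 459 without high IL-7 replicate 2 and 462 without low IL-7 replicate 3, and 2097 with array weights. Calls were more often lower than higher without IRF4 replicate 1 (470 higher and 584 lower). Vpreb3 differed by 0.76 (SE 0.078, adjusted p = 0.00036) and Cd79b by 0.47 (SE 0.082, adjusted p = 0.0159), with every IRF4 array above every high IL-7 array, as for 17.8% of all probe sets in either direction. The call of Cd79b was lost when only these 2 groups were fitted (adjusted p = 0.0703) and without IRF4 replicate 2 (0.42, adjusted p = 0.0756). The high IL-7 arrays are shared with the comparison against low IL-7, so the values of the 2 comparisons are not independent.

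The surrogate light chain genes themselves, Igll1 by its bright probe set, had differences below zero that did not pass the test. The dim Igll1 probe set differed by 0.09 (adjusted p = 0.713). Igll1 differed by -0.20 (SE 0.085, adjusted p = 0.353) and Vpreb1 by -0.15 (SE 0.065, adjusted p = 0.375), with overlapping arrays, and the probe set shared with Vpreb2 by -0.19 (adjusted p = 0.48). Without IRF4 replicate 1, Vpreb1 passed the test at -0.23 (adjusted p = 0.0498). Without both arrays of low 18S signal the differences of Igll1 and Vpreb1 shrank to -0.08 (adjusted p = 0.834) and -0.05 (adjusted p = 0.847). Cd79a differed by 0.22 (interval -0.31 to 0.76, adjusted p = 0.77) and Cd81 by 0.03 (interval -0.22 to 0.28, adjusted p = 0.945).

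**Figure D3:**
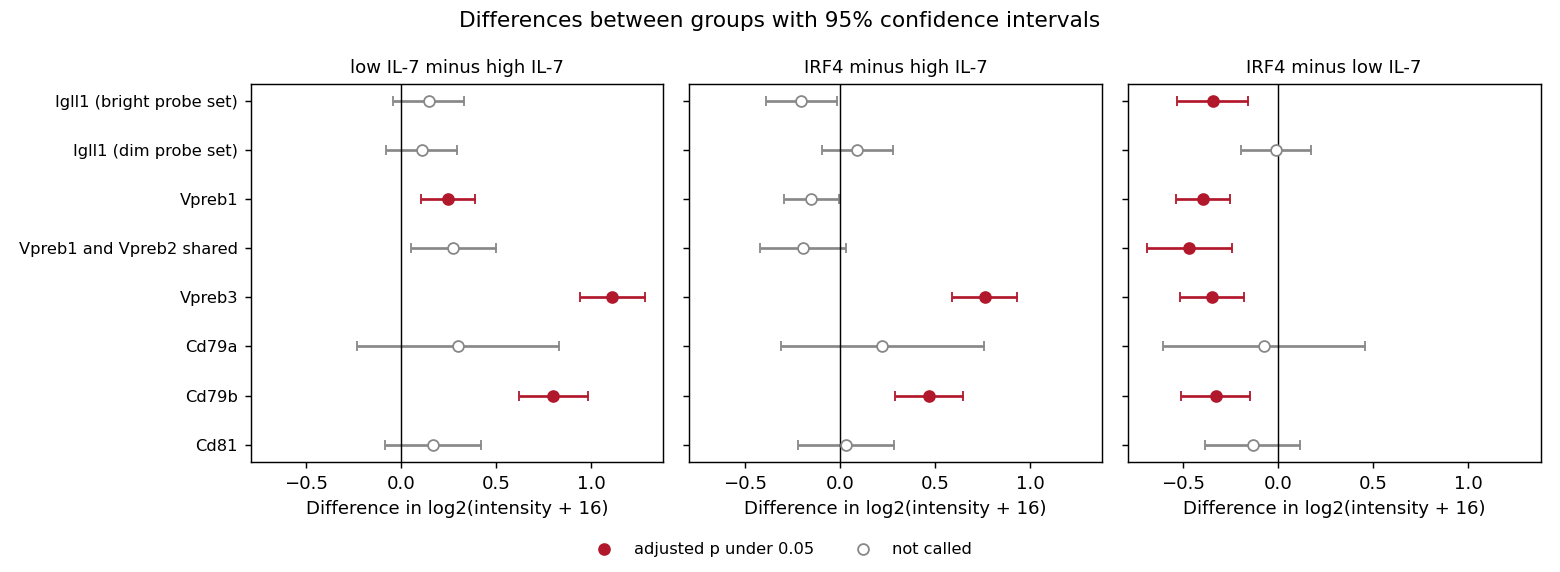
Difference on the log2(intensity + 16) scale for each member probe set and the shared probe set in the comparisons of low IL-7 with high IL-7, IRF4 with high IL-7 and IRF4 with low IL-7. Points are limma estimates and bars 95% confidence intervals; filled points passed the test, and Vpreb3 lies at 1.11, 0.76 and -0.35 and Vpreb1 at 0.25, -0.15 and -0.40 in that order.

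IRF4 in high IL-7 was also set against low IL-7, in which 24.7% of all probe sets were called and 14% were called lower. Here 4 of the 7 member probe sets fell: Vpreb1, Vpreb3, Cd79b and the bright probe set of Igll1, each without overlap between the groups, as for 39.2% of all probe sets. Vpreb1 fell the most, by 0.40 (SE 0.065, adjusted p = 0.000963), which is 1.32-fold lower. The probe set shared with Vpreb2 fell by 0.47 (SE 0.10, adjusted p = 0.00579).

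Igll1 fell by 0.35 (SE 0.085, adjusted p = 0.0111), Vpreb3 by 0.35 (SE 0.078, adjusted p = 0.00629) and Cd79b by 0.33 (SE 0.082, adjusted p = 0.0119). Scaling the arrays to 1 median ended the calls of Igll1 (-0.27, adjusted p = 0.0716) and Vpreb3 (-0.28, adjusted p = 0.0557), and leaving out low IL-7 replicate 2 ended that of Cd79b (adjusted p = 0.0544). Cd79a had a difference of -0.08 (adjusted p = 0.867) and Cd81 of -0.14 (adjusted p = 0.453). Without both arrays of low 18S signal Cd79a fell by 0.31 (adjusted p = 0.0465).

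The members thus had 2 orders of level over the 3 groups. For Vpreb3 and Cd79b the order was low IL-7, then IRF4, then high IL-7, and each group was called apart from its neighbour in the main fit. Of these calls, only that of Vpreb3 between IRF4 and high IL-7 held in every alternative. For Vpreb1 the order was low IL-7, then high IL-7, then IRF4, and the lower pair of groups was not called apart. The bright Igll1 probe set had that order too, and only low IL-7 and IRF4, the ends of it, were called apart. For Cd79a and Cd81 no neighbours were called apart.

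The contrast between Vpreb3 and Vpreb1, a pair picked after its values were seen, can be followed array by array. Relative to the mean of the high IL-7 arrays, the log2 ratio of Vpreb3 to Vpreb1 was 0.87, 0.87 and 0.85 in low IL-7, and 0.72, 0.96 and 1.06 with IRF4. In high IL-7 it was 0.14, -0.01 and -0.12. All 6 arrays of low IL-7 or IRF4 lay above those of high IL-7, and the low IL-7 and IRF4 arrays overlapped.

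Pearson correlations between members over the 9 arrays, which share the 3 groups and are given as descriptions, showed the same 2 patterns. Cd79b and Vpreb3 had r = 0.967, and Vpreb1 and the bright Igll1 probe set had r = 0.905. The dim Igll1 probe set had r = -0.094 with Vpreb1. Between the pairs, Vpreb3 had r = 0.404 with Vpreb1 and r = 0.23 with the bright Igll1 probe set. Cd79a correlated weakly with its partner Cd79b (r = 0.445) and negatively with Cd81 (r = -0.438).

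Among 12827 other genes, those whose pattern was most like each member by Pearson r over the 9 arrays were as follows. For Vpreb1 they were Irf8 (0.986), Erg (0.983) and Tm6sf1 (0.982). Irf8, which encodes one of the 2 factors for which these cells are null and whose probe set may read a transcript of the null allele, differed by 0.43 in low IL-7 against high IL-7, by -0.29 with IRF4 against high IL-7, and by -0.72 with IRF4 against low IL-7. Erg, an ETS factor, differed by 0.86, -0.60 and -1.46 in the same 3 comparisons, and neither Irf8 nor Erg was called with IRF4 against high IL-7 (adjusted p = 0.43 and 0.298).

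For Vpreb3 the leading genes were Tapt1 (r = 0.991), Rpl13a (0.988), a ribosomal protein gene, and Tifa (0.984), an adaptor of the TRAF6 pathway. Rpl13a followed the pattern with differences of only 0.06, 0.04 and -0.02, and was called in no comparison, whereas Tifa had 3.01, 1.92 and -1.09 and was called in all 3. For Cd79b they were Iqgap1 (0.994), a cytoskeletal scaffold, Prkcb (0.981), a protein kinase C downstream of the receptor, and Cyth1 (0.977), an exchange factor for small GTPases.

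For Igll1 they were Atmin (0.962), Chka (0.948) and Metap1d (0.946), for Cd79a Dffa (0.972), 2700081O15Rik (0.969) and Ctdsp1 (0.959), and for Cd81 Mfge8 (0.969), Tex261 (0.961) and Grina (0.942). No gene named for Cd79a or Cd81 was called in any comparison, and those named for Igll1 were called only between IRF4 and low IL-7.

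Genes that work with the receptor were read through lists, each gene by its brightest probe set. Over all 18193 genes so read, 26.1% were called in low IL-7 against high IL-7, 12.6% higher and 13.5% lower. With IRF4, 1.86% were called against high IL-7, 1.24% higher and 0.627% lower, and 25.5% against low IL-7, 12.9% higher and 12.5% lower. The median difference over all probe sets was 0.02, -0.0041 and -0.0094 in these 3 comparisons.

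Of 21 signalling genes downstream of the receptor, 10 were called higher and none lower in low IL-7, with a median difference of 0.26. By limma at an unadjusted p under 0.05, 11 were higher and 3 lower. Blnk, the adaptor that Syk phosphorylates, rose by 1.42 (SE 0.062), to a mean of 10400 intensity units in low IL-7 against 3879 in high IL-7. Prkcb rose by 1.48, Inpp5d, a lipid phosphatase that restrains signalling, by 0.83 and Blk, a Src family kinase, by 1.98. With IRF4 against high IL-7, 5 of the 21 were called higher and none lower (median 0.18). Syk (0.98), Prkcb (0.89), Blk (1.70) and Pik3ap1 (1.14) led them. At an unadjusted p under 0.05, 8 were higher and 1 lower. Against low IL-7, 6 fell and 3 rose with IRF4 (median 0), and the falls included Blnk (-1.24), Inpp5d (-0.71), Prkcb (-0.59) and Dok3 (-1.25).

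Of 9 coreceptor partners and modifiers, 5 rose and none fell in low IL-7 (median 0.69). They included the inhibitory receptors Cd72 (1.13), Fcgr2b (1.54) and Siglecg (0.69) and the adaptor Lax1 (1.05). With IRF4 against high IL-7, 3 rose and 3 fell (median 0.10). Siglecg (1.85, SE 0.13) and Cd22 (0.64), sialic acid receptors that dampen signalling, rose, and Cd72 (-0.51) and Ifitm1 (-1.83), a membrane protein found with Cd81, fell. Against low IL-7, 4 fell and 2 rose with IRF4 (median -0.48), Cd72 (-1.64), Lax1 (-1.70) and Ifitm1 (-1.93) among the falls and Siglecg (1.16) among the rises. Cr2, a complement receptor of mature B cells, was not called in any comparison.

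Of 13 tetraspanins other than Cd81, 4 rose and 3 fell in low IL-7 (median 0.19). Tspan13 (1.15), Cd9 (0.81) and Cd82 (0.79) rose and Tspan4 (-1.48) fell. With IRF4 against high IL-7, Cd53 (0.48) rose and Tspan4 (-0.74) and Cd9 (-0.64) fell, and the other 10 were not called (median -0.12). Against low IL-7, 6 fell and 2 rose with IRF4 (median -0.08). Cd81 itself was called in no comparison.

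Of 19 transcription factors listed as regulators of the receptor genes or of B cell precursors, 14 rose and 1 fell in low IL-7 (median 0.47). Foxo1 (1.49), Sox4 (0.99) and Ebf1 (0.67), a factor that acts on the Igll1, Vpreb1 and Cd79a genes, rose and Myc (-2.66) fell. With IRF4 against high IL-7, 3 rose and 1 fell (median 0.09). Spib (1.51), an ETS partner of IRF4, Ikzf1 (0.74), which encodes Ikaros, a repressor of Igll1, and Sox4 (0.38) rose, and the bright Irf4 probe set fell (-0.40, adjusted p = 0.0438). Ikzf1 averaged 3738 in low IL-7, 4519 with IRF4 and 2700 in high IL-7. Against low IL-7, 11 fell and 3 rose with IRF4 (median -0.44), with Foxo1 (-1.24), Lef1 (-1.51) and Irf4 (-0.98) among the falls and Myc (2.27) among the rises.

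The heavy-chain partner was read through 5 symbols that start with Igh, of which Ighmbp2 is not a heavy-chain gene. Ighm, the mu chain itself, averaged 16820 in low IL-7, 16660 with IRF4 and 14250 in high IL-7. Its rise of 0.24 in low IL-7 passed the test (adjusted p = 0.00633), and it differed by 0.23 with IRF4 against high IL-7 (adjusted p = 0.0665). The only other call in low IL-7 was the variable segment Ighv14-2 (1.27), which fell with IRF4 against low IL-7 (-1.02), the 1 call of that comparison. The list median was 0.06, 0.07 and 0.01 in the 3 comparisons, and none of the 5 was called by limma with IRF4 against high IL-7, where 2 were higher at an unadjusted p under 0.05.

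Of 8 genes that fold and assemble the receptor in the endoplasmic reticulum, 7 fell in low IL-7 (median -0.60). They included Hspa5 (-0.72), the chaperone BiP that holds unpaired heavy chains, Canx (-0.58), Calr (-0.84) and Pdia3 (-0.89). Mzb1, a chaperone of the B lineage, was the exception (0.09, adjusted p = 0.293). With IRF4 against high IL-7 none of the 8 was called by limma (median 0), and 2 were lower at an unadjusted p under 0.05. Against low IL-7, 7 rose and Mzb1 fell (-0.29) with IRF4 (median 0.58).

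**Figure D4:**
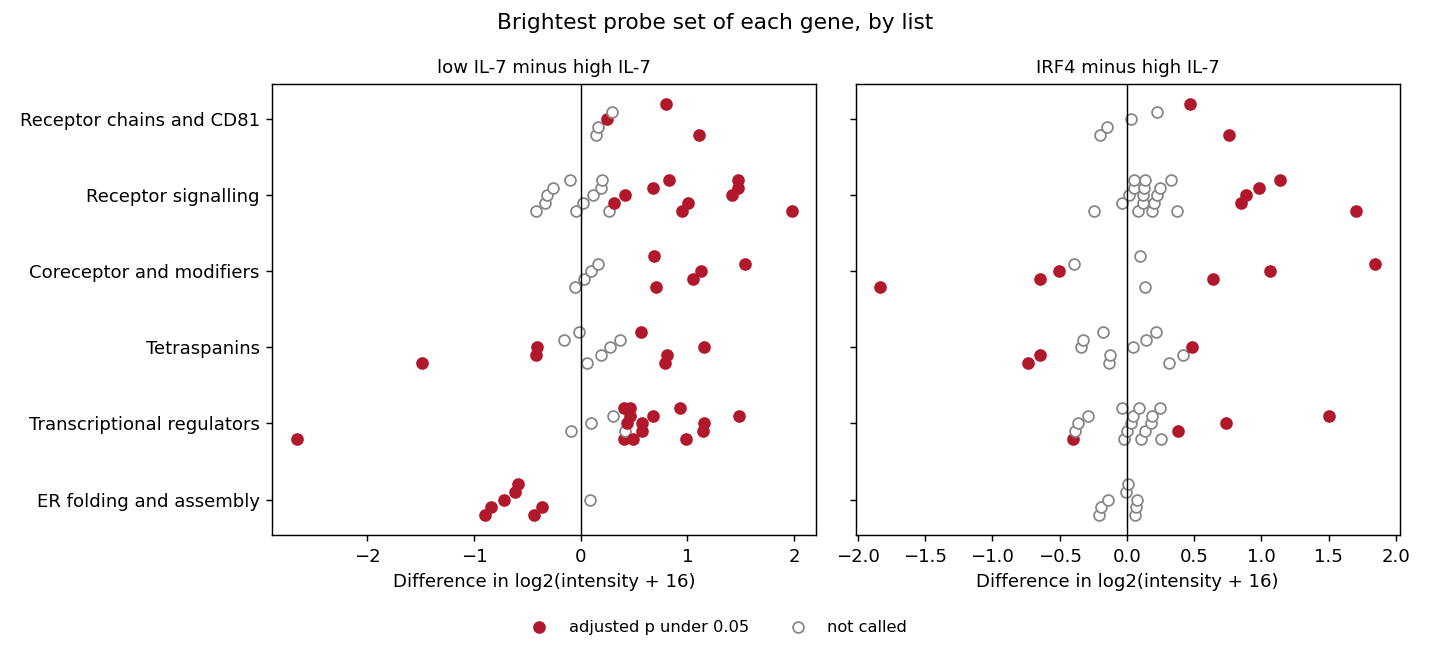
Differences on the log2(intensity + 16) scale for the members and for every gene of 5 lists of receptor partners, with 1 point a gene and 1 panel for low IL-7 against high IL-7 and 1 for IRF4 against high IL-7, which have their own horizontal scales. Filled points passed the test; 10 of 21 signalling genes are filled above 0 and 7 of 8 assembly genes below 0 in low IL-7, against 5 and 0 with IRF4.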

How the data were processed

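The members, lists and tests were chosen with earlier results of these data known. Total RNA was labelled with biotin and hybridised to Affymetrix arrays, per the labels' protocols. The authors deposited 1 linear intensity value per probe set and array (45101 probe sets, 64 of them controls); how these intensities were summarised, scaled or filtered was not stated in the labels or the table. Array medians were 139.7 to 151.2, so no scaling was added. Replicates correlated at r = 0.986 to 0.996. Groups came from the sample titles and gene names from the platform annotation (34945 probe sets with 1 symbol, 932 with several, 9160 with none). Genes of the lists that had no probe set with 1 symbol here were not analysed.

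Values were taken as log2(intensity + 16), which understates changes of dim probe sets. Group means were fitted over all 9 arrays with limma 3.58.1 in R 4.3.3 (lmFit, eBayes with a variance trend), and p-values were adjusted by Benjamini-Hochberg over all 45037 non-control probe sets; a call is an adjusted p under 0.05. The procedure was tested on simulated data. Figures used matplotlib 3.10.9 in Python 3.11.15.

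Named were all member probe sets, up to 4 called genes of each list with the smallest p in a comparison, and the 3 genes most correlated with each member (brightest probe set, mean intensity at least 108, the 40th percentile). Promoters came from RefSeq tables of GRCm38.p6.

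Deviations of same-numbered arrays from their group means correlated at r = 0.19 to 0.535 between low and high IL-7. That is a hint of pairing from the data and not from the labels. Differently numbered arrays of these groups correlated at -0.514 to 0.359, so the ranges overlap. Between IRF4 and the other groups r was -0.354 to 0.011 for same-numbered arrays. The main fit used no replicate block and treated no arrays as paired, and the block was fitted only as an alternative. Alternatives were the added constant, the filter, 1 probe set a gene, quantile and median scaling, no trend, array weights, the replicate block, fits of 2 groups only and leaving out each array. Leaving out both arrays of low 18S signal, and the block with 2 groups only, were chosen after seeing the data.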

Additional observations from a re-analysis of the deposited data

How the results depend on the processing

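Across all alternatives, 458 of 495 values of single probe sets kept their direction and side of the threshold, 15 passed the test only under the alternative, 11 no longer passed and 11 turned sign, each of them not called to begin with. Vpreb3 stayed called higher in low IL-7 and with IRF4 against high IL-7 in every alternative run. The sign turned for Cd81 between IRF4 and high IL-7 (-0.058 without high IL-7 replicate 1 and -0.092 without IRF4 replicate 1, in a range of -0.092 to 0.14 over single arrays left out). It turned for Cd79a in the same comparison (-0.017 without high IL-7 replicate 3, -0.0070 without IRF4 replicate 3, range -0.017 to 0.53) and between IRF4 and low IL-7 (0.082 without IRF4 replicate 2, range -0.31 to 0.082). For the dim Igll1 probe set it turned between IRF4 and low IL-7 (0.010 with quantile and 0.045 with median scaling, 0.0081 without IRF4 replicate 1, 0.013 without low IL-7 replicate 2, 0.0053 without low IL-7 replicate 3, range -0.058 to 0.013) and between IRF4 and high IL-7 without both arrays of low 18S signal (-0.012); the cause was not tested. With 1 probe set a gene, 4801, 365 and 4666 probe sets were called in the comparisons of low with high IL-7, IRF4 with high IL-7 and IRF4 with low IL-7, from fewer tested (12828). For IRF4 against high IL-7, against 749, the count was 2097 with array weights, 365 with the 2 groups only (1 member), 202 with the replicate block and the 2 groups only (1 member), and 460 without both arrays of low 18S signal. Median scaling left 2 members called between IRF4 and low IL-7 and moved the share of calls that were higher to 55.2%, against 43.4%. Leaving out 1 array gave 7568 to 11147, 366 to 1054 and 7922 to 11860 calls in the 3 comparisons, and 2 to 4, 1 to 3 and 3 to 4 members; the lowest count for IRF4 against high IL-7 came without IRF4 replicate 2. The replicate block over all 9 arrays gave 11028, 889 and 11589 calls and 4, 2 and 4 members, with 436 higher and 453 lower for IRF4 against high IL-7, and changed no call other than those of Igll1 and the shared probe set. Precision is limited by 3 arrays a group, and signal over background is not known.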
